A study of Mus musculus with 2 samples.

Results

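Dividing dental mesenchymal cells were cells of the mandibular first molars and the tissue around them that carried transcripts of the cell division machinery together with Col1a1, which encodes a chain of collagen I. They were selected on 5 or more unique molecular identifiers (UMIs, each 1 counted mRNA molecule) summed over Top2a, Mki67, Cenpf, Birc5 and Ube2c, and on at least 2% of their UMIs from Col1a1. Every cell had at least 200 genes and at most 20% of its UMIs from mitochondrial genes. Excluded were cells with 3 or more UMIs of the B-cell genes Cd79a and Cd79b and cells with 2% or more of their UMIs from the neutrophil genes S100a8 and S100a9. The rule found 273 of 19015 deposited cells, of which the Lipo-Clo library gave 158 and the Lipo-PBS library 115. The remaining 2748 and 3008 cells that met the same filters and the Col1a1 minimum are called non-dividing.

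The series asked how macrophage depletion alters the tooth root mesenchyme and its Gli1+ stem cells. C57BL/6J mice were injected intraperitoneally 4 times, the first on postnatal day 3.5, with clodronate liposomes (Lipo-Clo, 40 µg per g) or with an equal volume of vehicle liposomes (Lipo-PBS, 0 µg per g of clodronate), and tissue was taken at PN15.5. No transgene or deletion was named for either group. Each condition was 1 library and the number of mice in it was not given in the sources used here, so treatment, animal and library cannot be told apart. With 1 library per group there was no test, and every 95% interval covers counting error only. The libraries held 31053404 (Lipo-Clo) and 30537834 (Lipo-PBS) UMIs in 9362 and 9653 cells, with a median of 2666.5 and 2722 UMIs per cell. They shared 30 cell barcodes, and 1 dividing cell carried one of these.

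A dividing cell copies its DNA in S phase and separates the copies in mitosis, after a second gap phase (G2). Most histone mRNAs are made while DNA is copied and are broken down when copying ends, whereas the mRNAs of the mitotic machinery build up towards mitosis. In the growing molar, the dental papilla gives rise to pulp and to odontoblasts, which lay down dentin. The dental follicle outside it gives rise to the periodontal ligament (PDL), to cementoblasts and to osteoblasts of the alveolar bone.

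The 5 genes of the rule all act late in the cycle. Levels are in CPM, a gene's share of all UMIs summed over the dividing cells of a library, scaled to a total of 1000000. Ube2c, the ubiquitin-conjugating enzyme of the anaphase-promoting complex, reached 1001 CPM in Lipo-Clo (1104 UMIs) against 678 in Lipo-PBS (484 UMIs). Birc5, a subunit of the chromosomal passenger complex, stood at 713 and 448 CPM (787 and 320 UMIs). Top2a, the topoisomerase that untangles replicated DNA, stood at 411 and 408 CPM (454 and 291 UMIs). The remaining pair differed little between the libraries, Cenpf of the kinetochore with 313 and 318 CPM and Mki67, which coats mitotic chromosomes, with 211 and 221 CPM. In the non-dividing cells Mki67 was the lowest of the 5, at 5.32 and 7.61 CPM, and none exceeded 23.0 CPM. Since the rule used these genes, their levels are a description. The rule's sum had a median of 12 UMIs per cell in Lipo-Clo (range 5 to 74) and 9 in Lipo-PBS (5 to 53). At its threshold, 22 and 17 cells held exactly 5 UMIs and were taken, while 20 and 25 cells with 4 UMIs were not.

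The promoters of 3 of these genes are shown because late-cycle genes are known to be repressed outside the cycle through a cell cycle homology region (CHR), often placed near a CCAAT box. A window from 250 bases before to 50 bases after each gene's start was searched on both strands for the CHR core (TTTGAA or TTCGAA) and for CCAAT, in RefSeq sequence of GRCm38.p6. Each stretch below is given 5′ to 3′ on the gene's strand, with the core in capitals (TTCAAA is TTTGAA read from the other strand). Where a window held several cores before the start (4 in Top2a and 2 in Mki67), the one nearest the start is shown. These cores started 23 bases before the start of Top2a (chr11:99024195-99024224, minus strand), 98 before that of Mki67 (chr7:135716460-135716489, minus strand) and 29 before that of Ube2c (chr2:164769888-164769917, plus strand).
Top2a: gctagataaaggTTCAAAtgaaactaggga
Mki67: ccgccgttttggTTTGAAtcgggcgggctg
Ube2c: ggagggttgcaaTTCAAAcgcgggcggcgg
Of the 5 windows, 4 held a CHR core (80%) and 4 held CCAAT, against 19.2% and 37.4% of all 32851 windows. Cenpf's core began at base 3 of the gene, and no core was found in the window of Birc5. A match of letters is a description and not a shown binding site.

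Not every cell that met the rule was mesenchymal by its neighbours. The non-dividing cells were clustered without cell cycle genes, and each dividing cell was given the commonest cluster of its 15 nearest non-dividing cells. Clusters whose leading markers were those of blood and immune cells, epithelium, endothelium, glia or perivascular cells held 35 of the 158 dividing cells in Lipo-Clo (22.2%) and 60 of the 115 in Lipo-PBS (52.2%). The non-dividing cells had the same imbalance at lower shares, 11.8% and 29.8%. The largest of these was an erythroid-like cluster with 17 (10.8%) and 34 (29.6%) dividing cells, in which haemoglobin made up a median of 17.1% and 20.2% of UMIs and Col1a1 only 2.87% and 3.56%. Of all cells with at least 20% haemoglobin UMIs, 72 of 664 in Lipo-Clo and 208 of 946 in Lipo-PBS also passed the Col1a1 minimum. The doublet score marked 51.4% and 11.7% of the dividing cells in these clusters, and 5.69% and 1.82% of those elsewhere.

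The 12 other clusters, called mesenchyme-led, kept 123 of the Lipo-Clo and 55 of the Lipo-PBS dividing cells. This split was made after the data had been seen, and results are given for these cells and, where it matters, for all 273. Markers of other lineages were uneven in the mesenchyme-led dividing cells. Of the fixed lists, all 5 muscle markers were at 0 in both libraries, T and NK cell markers summed to 4 and 0 UMIs, endothelial markers to 14 and 8, glial markers to 3 and 6, and macrophage and other myeloid markers to 77 and 7 UMIs (92.9 and 21.2 CPM), led by Lyz2. The Lipo-Clo cells held 829020 UMIs in all and the Lipo-PBS cells 329607, so larger groups are given in CPM. Perivascular markers stood at 286 and 364 CPM (237 and 120 UMIs, led by Acta2), epithelial markers at 150 and 161 CPM (124 and 53 UMIs, led by Odam) and B-cell markers at 121 and 309 CPM (100 and 102 UMIs, nearly all from Ebf1), while Cd79a was at 0 in both. Neutrophil markers summed to 534 UMIs (644 CPM) in Lipo-Clo against 21 UMIs (63.7 CPM) in Lipo-PBS, with S100a9 the most abundant in Lipo-Clo and Camp in Lipo-PBS. Haemoglobin and Alas2 summed to 4060 UMIs (4897 CPM) against 8494 UMIs (25770 CPM), led by Hbb-bs in both. At least 3 neutrophil UMIs were found in 47.2% of the Lipo-Clo cells and in none of the Lipo-PBS cells, and at least 3 erythroid UMIs in 95.9% and 100%. The same imbalance stood in the non-dividing mesenchyme-led cells, with 465 and 101 CPM of neutrophil and 4681 and 11551 CPM of erythroid markers, and its part in the results was not tested.

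A larger share of the Lipo-Clo mesenchyme was dividing. Of the Col1a1-high cells, 5.44% were dividing in Lipo-Clo (158 of 2906, 95% Clopper-Pearson interval 4.64 to 6.32). In Lipo-PBS 3.68% were (115 of 3123, 3.05 to 4.40), which gave a log2 ratio of 0.56 (0.21 to 0.92). Within the mesenchyme-led clusters the shares were 4.83% (123 of 2548, 4.03 to 5.73) and 2.54% (55 of 2167, 1.92 to 3.29), a log2 ratio of 0.93 (0.46 to 1.41). These intervals do not overlap. The difference was smaller when each cell was thinned and the threshold lowered with it. Dividing cells held a median of 6534 and 5489 UMIs against 3331.5 and 3343.5 in non-dividing cells, so each cell was thinned to 2000 UMIs and called dividing at 2 or more marker UMIs. The shares were then 6.71% and 5.81% over all Col1a1-high cells, with a log2 ratio of 0.21 whose interval included 0 (-0.13 to 0.54). The interval also included 0 without cells that held markers of another class (54 of 1651 and 42 of 1867 dividing, log2 ratio 0.54, -0.07 to 1.16). In the mesenchyme-led clusters the thinned shares were 6.24% and 3.94%, a log2 ratio of 0.66 (0.23 to 1.11). Without thinning, a threshold of 3 marker UMIs alone gave a log2 ratio of 0.33, so the parts of depth and threshold cannot be told apart.

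Part of the difference moved with the mixture of clusters. When each cluster was given the same weight in both libraries, 4.05% of the Lipo-Clo and 3.05% of the Lipo-PBS mesenchyme-led cells were dividing, 1.33-fold, and the share was higher in Lipo-Clo in 6 of the 12 clusters. The cells outside the mesenchyme moved the same way. Among the kept cells that were not Col1a1-high, 11.5% (689 of 5980) had 5 or more marker UMIs in Lipo-Clo against 6.52% (376 of 5771) in Lipo-PBS, for a log2 ratio of 0.82 (0.64 to 1.01).

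**Figure D1:**
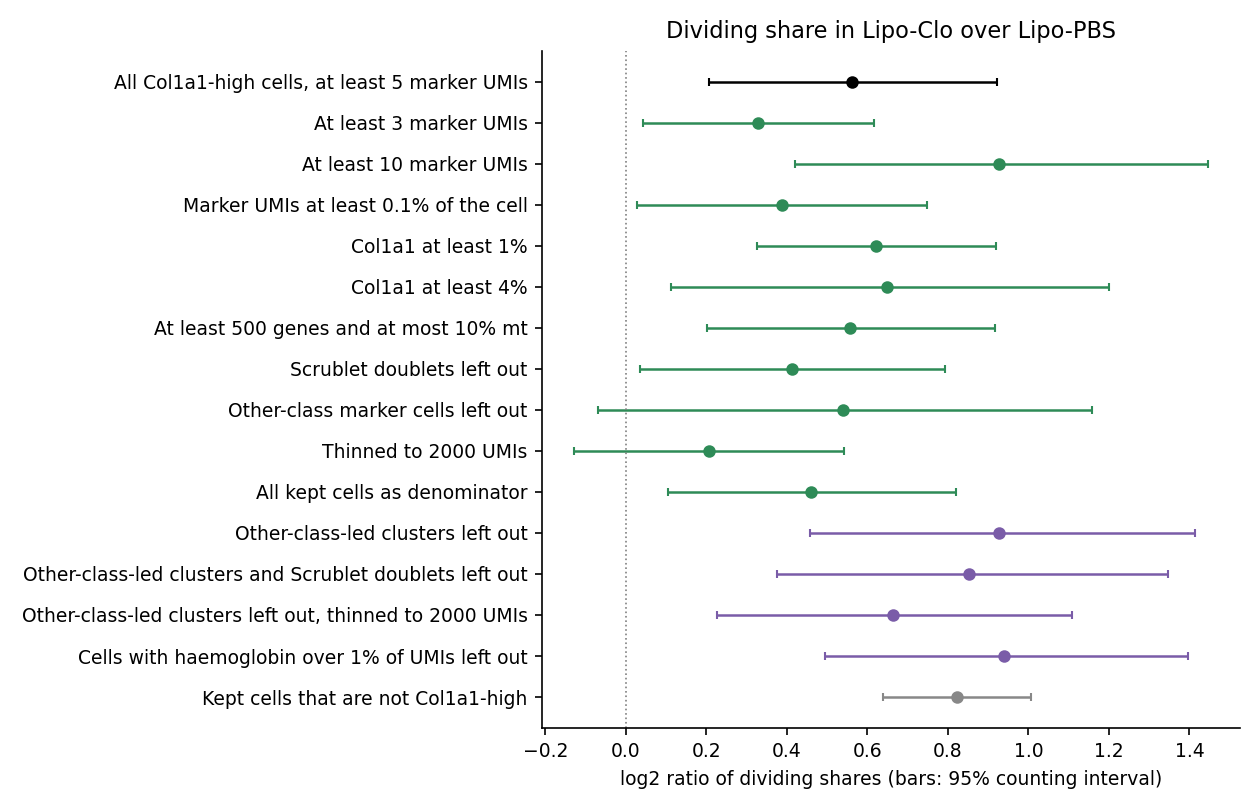
Log2 ratio of the dividing share, Lipo-Clo over Lipo-PBS (horizontal axis), under the settings named on the vertical axis, with 95% counting intervals as bars. The ratio of 0.56 for all Col1a1-high cells (black) lies between 0.21 after thinning and 0.94 without cells over 1% haemoglobin, planned settings are green, settings added after seeing the data are purple, and kept cells that are not Col1a1-high are grey.

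Among the mesenchyme-led clusters, dividing cells were most frequent in a PDL-like and an unnamed Pcp4 and Sfrp2 cluster, and rare in the fibroblast-like cluster. Clusters were named only from fixed marker lists and are given here by their 3 leading genes. The PDL-like cluster led by Pappa2, Insl6 and Entpd3 held 45 dividing cells of 392 in Lipo-Clo (11.5%) and 9 of 124 in Lipo-PBS (7.26%), 10.5% over both (7.96 to 13.4). Its name rested on only 4 of 12 PDL markers (Aspn, Tnn, Pappa2 and Crispld2), without Postn. Pappa2 stood at 333 CPM in its non-dividing cells and at 364 CPM in those of an unnamed cluster led by Thbs4. The unnamed cluster led by Kcnb2, Pcp4 and Sfrp2 held 20 of 183 (10.9%) and 13 of 177 (7.34%), 9.17% over both (6.39 to 12.6). Pcp4 is on the papilla and pulp list, and Sfrp2 encodes a secreted modulator of Wnt signals. In the fibroblast-like cluster led by Clec3b, Tnxb and Col14a1 the shares were 2 of 262 (0.763%) and 4 of 364 (1.10%), 0.958% over both (0.353 to 2.07). The first 2 intervals lay wholly above the last. Depth ran the same way, with non-dividing medians of 4201 and 4106 UMIs in the Pappa2 cluster and 2457.5 and 2503 in the fibroblast-like cluster. After thinning the order held, at 12.2% for the Pappa2 cluster, 9.63% for the Kcnb2 cluster and 2.24% for the fibroblast-like cluster.

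The matrix-forming and papilla clusters, a follicle-like and an unnamed one had lower shares than the first 2. Over both libraries they lay above the fibroblast-like cluster, but in Lipo-PBS the osteoblast and cementoblast-like cluster lay below it (0.376% and 1.10%). Over both libraries the latter cluster's interval (0.947 to 3.36) and that of the unnamed cluster (1.94 to 5.09) overlapped the fibroblast-like one (0.353 to 2.07). The odontoblast-like cluster led by Dspp, the precursor of the main dentin phosphoproteins, Gm40193 and Coch held 8 dividing cells of 147 (5.44%) in Lipo-Clo and 3 of 100 (3.0%) in Lipo-PBS. The papilla and pulp-like cluster led by Lrrc4c, Ctnnd2 and Egfem1 held 5 of 90 (5.56%) and 2 of 44 (4.55%). The follicle-like cluster led by Ephb1, Moxd1 and Frem2 held 17 of 470 (3.62%) and 5 of 105 (4.76%). Intervals of these 3 clusters overlapped one another. The unnamed cluster led by Thbs4, Pappa2 and Notum held 14 of 350 (4.00%) and 4 of 204 (1.96%). The osteoblast and cementoblast-like cluster led by Fstl4, Ibsp and Ank, of which Ibsp encodes bone sialoprotein, held 10 of 316 (3.16%) and 1 of 266 (0.376%). Thinning raised its Lipo-PBS share to 2.56% and its Lipo-Clo share to 6.25%, so the very low Lipo-PBS share did not hold when depth and threshold were changed together.

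The other PDL-like clusters and a follicle-like one had few dividing cells in Lipo-Clo. The cluster led by Stc2, Nts and Hpgd held 0 of 17 cells in Lipo-Clo (upper limit of the interval 19.5%) and 6 of 145 (4.14%) in Lipo-PBS. The one led by Pdzrn4, Ecm1 and Edil3 held 2 of 130 (1.54%) and 5 of 206 (2.43%), and the one led by Cilp, Fmod and Slpi held 0 of 63 (upper limit 5.69%) and 2 of 163 (1.23%). Since the first had only 17 Lipo-Clo cells, its 0 says little. The follicle-like cluster led by Il1rl1, Dio2 and Chchd10 held 0 of 128 (upper limit 2.84%) and 1 of 269 (0.372%). Dio2 encodes the enzyme that activates thyroid hormone.

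**Figure D2:**
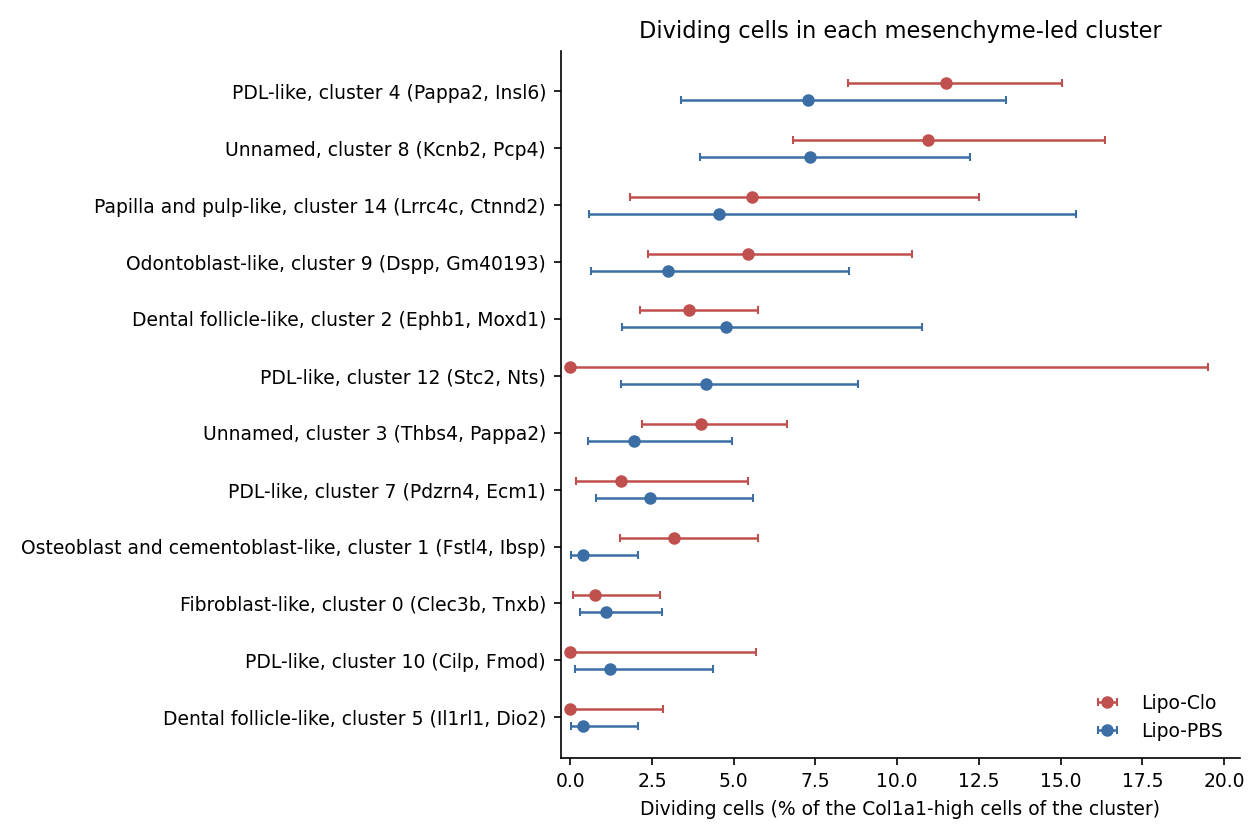
Share of cells that were dividing (horizontal axis, percent) in each mesenchyme-led cluster (vertical axis, named by class and leading genes) for Lipo-Clo and Lipo-PBS, with 95% Clopper-Pearson intervals as bars. The Pappa2 and Kcnb2 clusters sit highest, at 10.5% and 9.17% over both libraries, and the fibroblast-like, Cilp and Il1rl1 clusters sit lowest, at or below 0.958%.

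By class, PDL-like clusters together held 47 dividing cells among 602 in Lipo-Clo (7.81%, 5.79 to 10.2) but 22 among 638 in Lipo-PBS (3.45%, 2.17 to 5.17), for a log2 ratio of 1.18 (0.42 to 1.98). Different clusters made up this class in each library, mainly the Pappa2 cluster in Lipo-Clo and all 4 PDL-like clusters in Lipo-PBS, and within the Pappa2 cluster the log2 ratio was 0.66 with an interval that included 0 (-0.39 to 1.88). With cells placed by the marker lists alone the PDL-like shares were 5.12% and 4.43%, and 3.87% and 3.61% without the clusters led by another class, so the class difference depended on how cells were placed. So did the order of the classes, since with the lists alone the papilla and pulp-like class had the highest share in both libraries, 9.70% in Lipo-Clo (69 of 711, 7.63 to 12.1) and 4.99% in Lipo-PBS (31 of 621, 3.42 to 7.01). In the cluster placement, intervals also included 0 for the follicle-like (log2 ratio 0.83, -0.59 to 2.46), odontoblast-like (0.86, -1.20 to 3.41), papilla and pulp-like (0.29, -2.32 to 3.68) and fibroblast-like clusters (-0.53, -3.99 to 2.28). The follicle-like class mixed its 2 clusters differently in each library, with 470 and 105 cells in the Ephb1 cluster and 128 and 269 in the Il1rl1 cluster, and within the Ephb1 cluster the ratio was -0.40 (-1.89 to 1.40). The osteoblast and cementoblast-like ratio, on 10 and 1 cells, was 3.07 (0.26 to 8.51).

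Dividing cells carried leading genes of the cluster they were placed in, mostly below the level of their non-dividing neighbours. Of the 36 leading genes, 34 stood higher in the dividing cells of their cluster than in the non-dividing cells of the other mesenchyme-led clusters, but 28 stood below their own cluster's non-dividing cells, 12 of them at under 0.5 of that level. Ibsp in the dividing osteoblast and cementoblast-like cells stood at 11309 CPM over both libraries (666 and 120 UMIs), against 20249 CPM in their non-dividing neighbours and 1749 CPM elsewhere. In the Kcnb2 cluster Pcp4 stood at 810 CPM (114 and 71 UMIs) against 640 and 45.4 CPM, whereas Sfrp2 stood at 1095 CPM against 2155 and Kcnb2 at 61.3 CPM against 128. In the Ephb1 cluster Moxd1, a marker of the follicle, stood at 760 CPM against 918, and Ephb1 at 83.5 CPM against 171. The exceptions were Fmod and Chchd10, at 0 UMIs in the 2 and 1 dividing cells of their clusters. The placement used these genes, so their levels are a description.

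Doublets and haemoglobin bore most on the odontoblast-like and papilla and pulp-like cells. The doublet score marked 4 of the 8 odontoblast-like and 3 of the 5 papilla and pulp-like dividing cells in Lipo-Clo, which are all 7 cells it marked among the 123 there. In Lipo-PBS, 1 of the 3 odontoblast-like dividing cells had at least 20% of its UMIs from haemoglobin and held all 36 Dspp UMIs of that group. Dspp stood at 982 CPM over both libraries (75 and 36 UMIs) in the 11 odontoblast-like dividing cells, against 2041 CPM in non-dividing ones. In the 6 cells left without those marked by either measure it stood at 730 CPM (61 and 0 UMIs), so the Dspp of unmarked dividing cells came from Lipo-Clo. Without the marked cells the odontoblast-like dividing share fell from 5.44% to 2.94% in Lipo-Clo, against 3.0% and 2.17% in Lipo-PBS.

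Dividing and non-dividing cells were then compared over all genes, each library on its own. Of 12806 genes with enough UMIs, 489 were more than 2-fold higher in the dividing cells in both libraries (3.82%) and 401 more than 2-fold lower (3.13%). In the mesenchyme-led clusters 454 of 11958 were higher (3.8%) and 541 lower (4.52%). The median of all genes was -0.16 on the log2 scale, and -0.15 in the mesenchyme-led cells. This is the contrast the rule drew, so the counts of cycle genes below describe the cells and nothing more is read from them.

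Mitotic and S-phase genes were higher together. Of 61 measured G2 and M genes 59 were higher in both libraries, with a median log2 ratio of 4.21 (4.94 in mesenchyme-led cells), and of 52 S-phase genes 42 were, with a median of 1.90. Cdk1, the kinase that drives entry into mitosis, stood at 280 and 207 CPM (309 and 148 UMIs) against 7.06 and 9.88 CPM in non-dividing cells. Nusap1 and Prc1, which organise the spindle, had log2 ratios of 5.58 and 5.11, and of 5.00 and 4.60. Among S-phase genes Rrm2, a subunit of ribonucleotide reductase, stood at 119 and 79.9 CPM against 7.44 and 6.52 CPM in non-dividing cells. Tyms, which makes thymidylate, stood at 188 and 115 CPM against 15.4 and 14.4 CPM. Pcna, the sliding clamp of DNA polymerase, differed less, with log2 ratios of 1.55 and 0.87, and did not pass 2-fold in both libraries.

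Outside the cycle lists, the 10 genes with the highest ratios again included genes of chromosome segregation, although the lists did not hold them. Among them were Sgo2a and Sgo1, which protect the cohesion of sister chromatids, Spc25 of the kinetochore, the kinesin Kif14, the kinase Melk, the Myc-network repressor Mxd3, and Depdc1a, Prr11 and Shcbp1. Sgo2a held 75 and 59 UMIs in the dividing cells, with log2 ratios of 5.55 and 5.37, and Depdc1a held 104 and 72 UMIs, with ratios of 5.93 and 5.26. The lowest of the 10, Shcbp1, had ratios of 5.00 and 4.81. The 10 most reduced genes (Mcpt4, Cartpt, Hdhd3, Serpina3n, Tbxa2r, Zfr2, Gm47163, Btbd19, Zc4h2 and Cftr) held at most 2 UMIs in the dividing cells of either library, so no fold is given for them.

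Of 26 regulators of G1, 3 were called, all higher, beside 3.82% of all genes in use. The median log2 ratio of the 26 was 0.01. Cdkn2d, an inhibitor of the CDK4 and CDK6 kinases, stood at 190 and 137 CPM in the dividing cells (210 and 98 UMIs) against 40.1 and 40.5 CPM. Its relative Cdkn2c stood at 118 and 70.1 CPM (130 and 50 UMIs) against 23.0 and 13.5 CPM. Rbl1, a pocket protein of the retinoblastoma family, held 34 and 28 UMIs with log2 ratios of 2.29 and 2.19. Cdk4 itself lay within 0.28 and 0.19 of its non-dividing level, and Ccnd2, a D-type cyclin, lay below it (106 and 118 CPM against 192 and 210).

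Matrix and lineage genes lay mostly below their non-dividing level, by less than 2-fold. Of 37 matrix genes 34 were lower in both libraries, with a median log2 ratio of -0.39, where 5601 of the 12806 genes in use were lower in both (median -0.16). Past 2-fold lower was only Col14a1, 1 of the 37 beside 3.13% of all genes in use, at 16.3 and 77.1 CPM (18 and 55 UMIs) against 86.2 and 169 CPM. Col1a2, the partner chain of Col1a1, stood at 15478 and 15568 CPM against 18692 and 19034. In mesenchyme-led cells 6 of the 37 passed 2-fold, beside 4.52% of all genes in use: Eln, Mgp, Mfap4, Col14a1, Thbs1 and Loxl1. Eln, which encodes elastin, stood there at 129 and 182 CPM (107 and 60 UMIs) against 519 and 596 CPM.

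Among lineage lists, the fibroblast list had the lowest median over both libraries. Of 8 fibroblast markers 5 were more than 2-fold lower (median log2 ratio -1.77), where 3.13% of all genes in use were, among them Cd34, a surface glycoprotein, at -2.20 and -1.37. Of 9 osteoblast and cementoblast markers 2 were lower, with medians of -0.36 in Lipo-Clo and -1.11 in Lipo-PBS. These were Spp1, or osteopontin, at 220 and 219 CPM (243 and 156 UMIs) against 529 and 470, and Dmp1, a matrix protein of osteocytes and odontoblasts, at -1.52 and -2.14. None of 12 PDL markers was called (median -0.26), and Postn, the ligament's matricellular protein periostin, stood at 1460 and 2411 CPM against 2583 and 3336. None of the 13 papilla and pulp markers was called either, while 1 of 5 odontoblast markers (Phex) and 2 of 6 follicle markers (Grem1 and Dio2) were lower. In mesenchyme-led cells 2 of 12 papilla and pulp markers were more than 2-fold lower, beside 4.52% of all genes in use. Dspp stood at 129 and 58.8 CPM in dividing cells and 179 and 104 in non-dividing cells.

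Wnt, growth factor receptor and TGF-β genes were mostly lower by less than 2-fold. Over all genes, 8264 of 12806 lay below 0. None of 11 Hedgehog genes (median -0.08), 19 Wnt genes (-0.33) or 32 skeletal and dental transcription factors (-0.21) passed 2-fold in both libraries, with 17 of the Wnt genes and 21 of the transcription factors below 0. In mesenchyme-led cells 16 of the 32 transcription factors lay below 0. There 1 of the 32 factors was more than 2-fold higher and 1 of 19 Wnt genes more than 2-fold lower. Over all genes in use in those cells, 3.8% were higher and 4.52% lower. Runx2, the master factor of osteoblasts, stood at 436 and 530 CPM against 627 and 649, and Sp7, which acts after it, at 65.3 and 40.6 CPM against 82.3 and 58.6. Of 17 growth factor receptors 16 lay below 0 (median -0.36), and only Met was called lower, on 1 UMI in each library. Of 21 TGF-β genes 19 lay below 0 (median -0.48) and 2 were called lower, among them Ltbp2, which binds latent TGF-β. Beside these calls, 3.13% of all 12806 genes in use were called lower. All 16 stress and immediate early genes lay below their non-dividing level without passing 2-fold (median -0.54), Fos at 963 and 1209 CPM against 1422 and 1676. In mesenchyme-led cells 3 of the 16 were more than 2-fold lower, beside 4.52% of all genes in use. None of 78 ribosomal protein genes passed 2-fold (median 0.00).

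**Figure D3:**
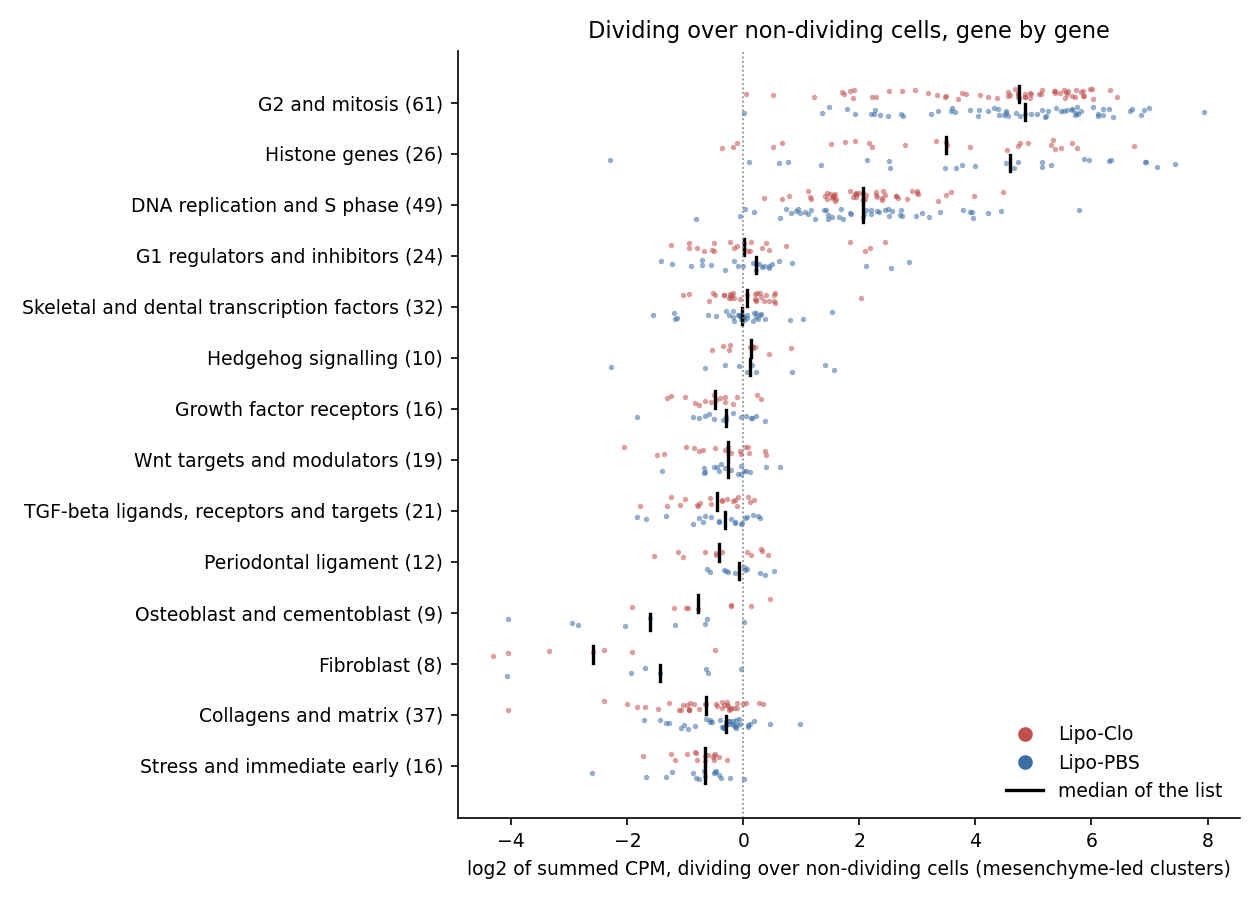
Log2 ratio of dividing over non-dividing CPM (horizontal axis) for the genes of each list (vertical axis) in mesenchyme-led cells, 1 point per gene and library, with a black bar at the median of the genes drawn. Genes with no UMI in a library's dividing cells are not drawn; the G2 and M, histone and S-phase lists lie far to the right, and PDL and matrix genes lie around or just left of 0, and fibroblast and osteoblast and cementoblast genes lie further left, the latter with medians of -0.78 in Lipo-Clo and -1.60 in Lipo-PBS.

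Most dividing cells held far more G2 and M than S-phase transcripts, and the rule's own genes are G2 and M genes. The median cell held 81 G2 and M UMIs in Lipo-Clo and 60 in Lipo-PBS, and 16.5 and 9 S-phase UMIs. S-phase UMIs exceeded G2 and M UMIs in 6 of 158 cells (3.80%) and 1 of 115 (0.870%). Cells in S phase with few late-cycle transcripts were not selected by the rule.

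Histone genes were lower in Lipo-Clo, and how far this was particular to dividing cells depended on the cells taken. Over all 273 dividing cells they summed to 4213 and 5743 CPM, a log2 ratio of -0.45 (-0.51 to -0.39), and in all non-dividing cells to 399 and 525 CPM, at -0.40 (-0.46 to -0.34), so the ratios were nearly equal. In the mesenchyme-led dividing cells histone genes summed to 3796 CPM in Lipo-Clo (3147 UMIs) but 7724 in Lipo-PBS (2546 UMIs), a log2 ratio of -1.02 (-1.10 to -0.95). In non-dividing cells they stood at 394 and 435 CPM, a log2 ratio of -0.14 (-0.21 to -0.07). Thus in the mesenchyme-led cells, a split that was not fixed beforehand, the histone sum was lower in Lipo-Clo by much more in the dividing cells than in the others. The ratio was -1.01 without the highest cell of each library, -1.57 in the Pappa2 cluster (4702 and 13918 CPM), -0.99 in the Kcnb2 cluster (3613 and 7185 CPM) and -1.06 in the rest. Of the 15 histone genes with 50 or more UMIs in these cells, 8 were more than 2-fold lower, beside 4.37% of all genes in use, with a median of -1.10 in dividing and -0.55 in non-dividing cells. Over all 273 cells 2 of 21 were, beside 3.8% of all genes, and there the median was -0.63 in dividing but -0.96 in non-dividing cells. H2ac22 stood at 146 and 795 CPM (121 and 262 UMIs) and H1f5, a linker histone, at 397 and 1232 CPM (329 and 406 UMIs), with log2 ratios of -2.45 (-2.77 to -2.13) and -1.63 (-1.85 to -1.42). Of the 15 genes 14 lay below 0 and 1 above, and H2ac24 was lower by less, at -0.23. Many histone genes are near-identical copies, so how reads were divided among them is uncertain, and in this respect only the sum is firmer than any member. How completely histone mRNAs were captured in each library was not tested, and the sum does not settle it.

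The other cycle lists did not move with the histones. S-phase genes stood at 3098 and 2497 CPM, a log2 ratio of 0.31 (0.20 to 0.43), and G2 and M genes at 15850 and 14787 CPM, a ratio of 0.10 (0.05 to 0.15). The sum and the typical gene differed in sign for the G2 and M list, since its median ratio was -0.11, with 33 of 56 genes below 0 and 2 more than 2-fold lower. By cell, histone UMIs exceeded G2 and M UMIs in 3 of 123 mesenchyme-led dividing cells in Lipo-Clo (2.44%, 0.506 to 6.96), but in 13 of 55 in Lipo-PBS (23.6%, 13.2 to 37.0). These intervals do not overlap. Without cells marked by the doublet score the counts were 1 of 116 and 12 of 54. The median cell gave 0.227% of its UMIs to histones in Lipo-Clo and 0.688% in Lipo-PBS, but the quartiles overlapped widely (0.0578 to 0.740 and 0.0529 to 1.32).

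Outside the mesenchyme the histone difference was smaller than in the mesenchyme-led dividing cells, or turned. In cells with at least 5 marker UMIs that were not Col1a1-high, it was larger than over all dividing cells of the rule. In the dividing cells of the other clusters histones stood at 5472 CPM in Lipo-Clo against 4043 in Lipo-PBS, with the log2 ratio at 0.44 (0.33 to 0.54). Among kept cells with at least 5 marker UMIs that were not Col1a1-high they stood at 5483 and 8614 CPM, a log2 ratio of -0.65 (-0.68 to -0.62), and in the rest of the kept cells outside that set the ratio was -0.20. Lower histone levels were thus not limited to the mesenchyme, and counting error does not cover differences between libraries. In promoter windows of 58 of the 68 histone genes (59 windows), 84.7% held CCAAT and 57.6% the TATA box TATAAA, against 37.4% and 13.6% of all windows. The CHR core was in 45.8% of the histone windows, against 19.2% of all windows.

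**Figure D4:**
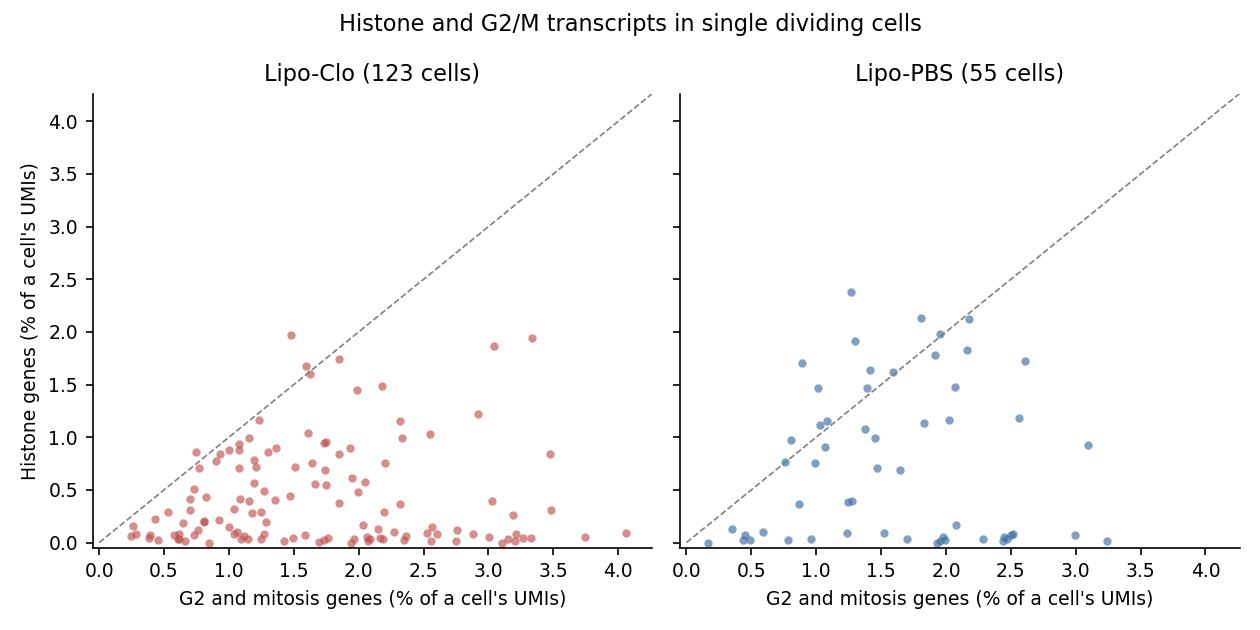
Share of a cell's UMIs from histone genes (vertical axis, percent) against its share from G2 and M genes (horizontal axis, percent), 1 point for each mesenchyme-led dividing cell of Lipo-Clo (left) and Lipo-PBS (right), with a dashed line where both are equal. Above the line lie 3 of 123 Lipo-Clo cells and 13 of 55 Lipo-PBS cells.

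Lipo-Clo and Lipo-PBS dividing cells were next compared gene by gene. Over all dividing cells 91 of 5021 genes with 50 or more UMIs were more than 2-fold higher in Lipo-Clo (1.81%) and 191 lower (3.8%). In the mesenchyme-led dividing cells 87 of 3524 were higher (2.47%) and 154 lower (4.37%), with a median of all genes of 0.03. The split depended on scaling. Of the calls in mesenchyme-led cells 36.1% were higher in Lipo-Clo with total counts, but 54.5% with DESeq2's size factors, and with edgeR's TMM factors 143 were higher and 108 lower. The median of all genes moved to 0.15 with DESeq2's factors and 0.16 with TMM factors, and directions below are for total counts.

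PDL and matrix genes were lower in the Lipo-Clo dividing cells. Of 10 PDL markers 3 were more than 2-fold lower, beside 4.37% of all genes in use. The list's median log2 ratio was -0.95, and its sum stood at 4303 and 8628 CPM. Postn stood at 1289 CPM in Lipo-Clo (1069 UMIs) against 3049 in Lipo-PBS (1005 UMIs), a log2 ratio of -1.24 (-1.37 to -1.12) against -0.52 in non-dividing cells. Aspn, or asporin, a small proteoglycan of the ligament, stood at 454 and 1247 CPM (376 and 411 UMIs), a ratio of -1.46 against -0.95. Edil3, a secreted integrin ligand, held 20 and 47 UMIs, a ratio of -2.56 against -1.02. The list was lower in the non-dividing cells too, with a median of -0.59. Within the Pappa2 cluster its sum had a ratio of -1.18, and within the Kcnb2 cluster -0.61. It was lower outside the mesenchyme as well, with a ratio of -1.31 in cells with at least 5 marker UMIs that were not Col1a1-high and -0.86 in the rest of those cells.

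Matrix genes lay below 0 in 31 of 33 cases (median log2 ratio -0.56, and -0.26 in non-dividing cells), and 7 of the 33 passed 2-fold. Over all genes 1700 of 3524 lay below 0 and 4.37% passed 2-fold. Apart from Postn and Aspn these were Fn1 (-1.24), Fbln1 (-1.27), Fbn1 (-1.38), Mgp and Mfap5. Mgp, an inhibitor of calcification, held 51 and 67 UMIs, a ratio of -1.72 against -1.23 in non-dividing cells. Mfap5, which binds elastic microfibrils, held 8 and 57 UMIs in 6 of 123 and 8 of 55 cells, a ratio of -4.16 against -0.75, so few cells carried it. Mfap5 is also on the fibroblast list, whose sum had a ratio of -1.79 against -0.70. Other genes that were lower included Prrx1, a limb and craniofacial mesenchyme factor, with 104 and 94 UMIs and a ratio of -1.18 (-0.68 in non-dividing cells). Prrx1 was also lower in endothelial cells, at 28.8 and 65.8 CPM, and in epithelial cells, at 43.9 and 83.8. In haemoglobin-rich cells it stood at 50.6 and 127 CPM. Of these, 72 of 664 and 208 of 946 passed the Col1a1 minimum, so they were not all outside the mesenchyme. Sfrp2 held 153 and 150 UMIs, a ratio of -1.30 (-1.04). Mmp13, a collagenase, held 130 and 186 UMIs, a ratio of -1.85 (-1.24). Tgfb2 had a ratio of -1.19, but the TGF-β list as a whole moved less. Of its 12 genes in use 8 lay below 0 and 4 above (median -0.37, and -0.25 in non-dividing cells). Past 2-fold lower were 2 of the 12, beside 4.37% of all genes in use. Runx2 had a ratio of -0.41.

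Osteoblast genes were higher, on few cells. Of 8 osteoblast and cementoblast markers 5 passed 2-fold (Bglap, Bglap2, Spp1, Ifitm5 and Sp7), beside 2.47% of all genes in use. The median of the 8 was 1.22 against 0.10 in non-dividing cells. The list summed to 4960 CPM in Lipo-Clo against 2482 in Lipo-PBS, and its log2 ratio was 1.00 (0.89 to 1.11). Bglap, or osteocalcin, held 1261 and 111 UMIs, but 1 Lipo-Clo cell gave 950 of these, and the ratio of 2.18 became 1.43 without the highest cell of each library. It was found in 22 of 123 and 13 of 55 cells. Sp7 stood at 73.6 and 30.3 CPM (61 and 10 UMIs), a ratio of 1.28 (0.30 to 2.41), and Spp1 at 263 and 118 CPM (218 and 39 UMIs), a ratio of 1.15. Within the Pappa2 cluster the list's ratio was 0.44 with an interval that included 0 (-0.13 to 1.06), within the Kcnb2 cluster it was -0.17, and in the remaining clusters it was 1.56. The difference thus moved with the clusters the dividing cells came from.

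Among other genes that were higher, Srm, which makes the polyamine spermidine, stood at 247 and 91.0 CPM (205 and 30 UMIs), a log2 ratio of 1.44 (0.88 to 2.05) against 0.40 in non-dividing cells, and Col11a2, a fibrillar collagen chain of odontoblasts and cartilage, held 104 and 14 UMIs, a ratio of 1.56. Bambi, a decoy receptor for TGF-β family ligands, had a ratio of 1.26 against 0.59. S100a8 (139 and 4 UMIs, in 43 of 123 and 4 of 55 cells) and S100a9 (172 and 6 UMIs) had ratios of 3.79 and 3.51, beside a median of 2.42 for the neutrophil list in non-dividing cells. All 11 mitochondrial genes were lower, with a median of -2.72 against -2.11 in non-dividing cells, as were all 4 erythroid genes, with a median of -2.36. All 77 ribosomal protein genes lay above 0 without passing 2-fold (median 0.42, and 0.26 in non-dividing cells). These lists moved across each library and not only in its dividing cells.

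Over all 273 dividing cells the largest differences mixed mesenchymal genes with genes of other cell types. The 10 genes that were highest in Lipo-Clo were Prtn3, Bglap, Bglap2, Ifitm5, Bambi, Pkdcc, Atp5mc2, Ddah1, Srm and Mrps26. Prtn3, a neutrophil serine protease, held 123 and 2 UMIs, 87 of them in 1 cell. The 10 that were lowest were Ccl21a, Ccl4, Mfap5, Cxcl2, Ccl2, Mgp, H2-Eb1, Apoe, Rgs5 and Edil3. The chemokine genes Ccl4, Cxcl2 and Ccl2 had log2 ratios of -4.11, -3.19 and -3.02 over all dividing cells but 0.25, 1.67 and 0.13 in the mesenchyme-led ones, and H2-Eb1, a class II antigen-presenting gene, had -2.25 and 0.99.

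**Figure D5:**
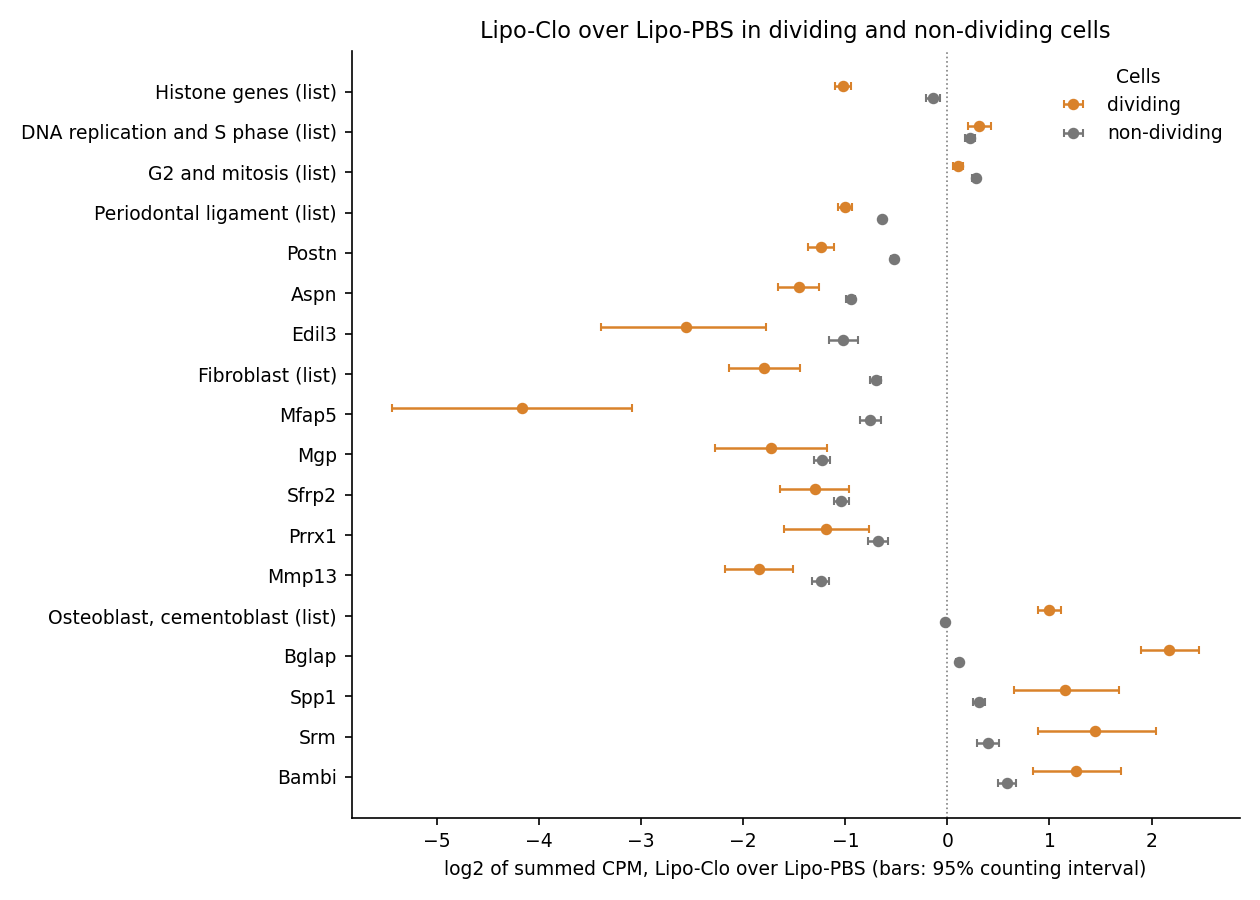
Log2 ratio of Lipo-Clo over Lipo-PBS CPM (horizontal axis) for named genes and summed lists (vertical axis) in dividing and non-dividing mesenchyme-led cells, with 95% counting intervals as bars. Postn, Aspn and the histone sum lie further left in dividing than in non-dividing cells, and Bglap lies at 2.18 in dividing cells and 0.11 in non-dividing cells.

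Gli1, the Hedgehog target that marks root mesenchymal stem cells, was found in few dividing cells. A Gli1 UMI was present in 4 of 158 dividing cells in Lipo-Clo (2.53%, 0.694 to 6.35) against 6 of 115 in Lipo-PBS (5.22%, 1.94 to 11.0), with 6 UMIs in each library. These intervals overlap. In non-dividing cells the shares were 1.46% and 1.36%. At 2000 UMIs per cell they were 1.31% and 2.68% in dividing and 0.510% and 0.834% in non-dividing cells. In endothelial cells, which should lack Gli1, the unthinned shares were 0.446% and 0.612% (median depth 1450.5 and 2203 UMIs). For cells rich in haemoglobin they were 0.151% and 1.48% (3831 and 3695). However, 72 of these 664 cells and 208 of these 946 passed the Col1a1 minimum, so this set is not a clean background. Epithelial cells, which can respond to Hedgehog signals, had 1.13% and 0.851% (2747 and 3047). All were shallower than the dividing cells. Viewed from Gli1, 4 of 44 Gli1-positive Col1a1-high cells in Lipo-Clo (9.09%) and 6 of 47 in Lipo-PBS (12.8%) were dividing, against 5.38% and 3.54% of those without a Gli1 UMI. Gli1-positive cells were also deeper, with medians of 5349.5 and 4325 UMIs against 3437 and 3398.5. A difference between the libraries was not detectable at this depth.

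Ptch1, the Hedgehog receptor and a target of the pathway, was present in 18.4% and 19.1% of dividing cells and 9.83% and 9.94% of non-dividing cells. A Ptch1 UMI was also found in 5.80% and 7.95% of endothelial, 8.77% and 9.89% of epithelial and 5.12% and 7.19% of haemoglobin-rich cells. By level, Ptch1 stood at 32.0 and 30.9 CPM in non-dividing, 30.7 and 26.5 in endothelial and 13.8 and 19.4 in haemoglobin-rich cells. How much of it was background was not tested. At 2000 UMIs per cell the shares were 4.58% and 6.25% in dividing and 5.75% and 5.42% in non-dividing cells, so over all cells the higher unthinned share did not hold at equal depth. Of the mesenchyme-led cells the thinned shares were 5.04% (6 of 119) and 13.0% (7 of 54, 5.37 to 24.9) in dividing and 6.00% and 6.13% in non-dividing cells. In the mesenchyme-led dividing cells Ptch1 held 31 and 20 UMIs, a log2 ratio of -0.70 whose interval included 0 (-1.56 to 0.19).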

How the data were processed

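Mandibular first molars and their surrounding tissue were digested with Dispase and Collagenase I, strained and made into 1 droplet library per condition. The deposited values are raw UMI counts per gene and cell, which the authors made with Cell Ranger on GRCm39. The submitters' notes name version 3.1.0 and Seurat 3.1.1, whereas the file header names Cell Ranger 8.0.0. The matrices hold 34285 genes. How doublets were removed was not given in the sources used here. Members and gene lists were chosen with earlier results of these data known.

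Counts were summed over cells and divided by the summed total (CPM). Shares have Clopper-Pearson intervals, ratios have conditional binomial intervals, and both cover counting error only. A gene was called past 2-fold in both libraries (dividing over non-dividing, at least 50 UMIs in all and 10 per library) or past 2-fold (Lipo-Clo over Lipo-PBS, at least 50 UMIs). Non-dividing cells were clustered with scanpy 1.11.5 and leidenalg 0.10.2 (resolution 1, 2000 variable genes, 30 components, 20 neighbours). Of 1151 held-out non-dividing cells 1070 (93.0%) were returned to their cluster. A cluster was named for a list with 3 or more raised markers, 1 of them among its top 10 genes. Scrublet's own threshold marked almost no cell, so the cells with the top scores were marked at 0.8% per 1000 cells. edgeR 4.0.16 and DESeq2 1.42.0 gave scaling factors only. The scripts were tested on simulated data.

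Named genes were the rule markers, list members, the 10 per direction with the largest ratios outside the cycle lists, the 10 per direction between libraries at 100 or more UMIs, genes the study names and 3 leading genes per cluster. Promoter windows matched 50 of 63 G2 and M and 37 of 52 S-phase genes, so no share is given for those lists. Some genes that met these rules are not reported here.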

Additional observations from a re-analysis of the deposited data

Results flagged for a closer look

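Among the named and listed genes with 50 or more UMIs in the mesenchyme-led dividing cells, 6 had ratios of opposite sign in 2 sets of cells with both counting intervals clear of 0, and none of these differences was tested. Ibsp, bone sialoprotein, had a log2 ratio of Lipo-Clo over Lipo-PBS of 0.44 in dividing and -0.18 in non-dividing cells. H2ac24, a histone, had -0.23 and 1.02, and Pcp4, a calmodulin-binding protein, had -0.54 and 0.84, the first becoming 0.13 without the highest cell of each library. Dividing over non-dividing, Srm, spermidine synthase, had a log2 ratio of 0.28 in Lipo-Clo but -0.76 in Lipo-PBS. The same ratio was 0.27 and -0.41 for Bambi, the TGF-β family decoy receptor, and -0.52 and 0.65 for Igfbp3, which binds insulin-like growth factors.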

How the results depend on the processing

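No paired analysis was possible because 1 library was made per condition, so none could be left out either. The fibroblast-like shares, on 2 and 4 dividing cells, changed order with 50 neighbours (1.14% and 1.10%) and with the marker lists alone without the other-class clusters (1.97% and 1.30%). Thinning turned the order of the odontoblast-like shares (2.73% and 5.38%) and of the papilla and pulp-like shares (2.5% and 4.76%), and leaving out doublets and cells with 20% haemoglobin turned the latter too (3.92% and 6.25%) and brought the former to 2.94% and 2.17%. Calls turned from more lower to more higher in mesenchyme-led Lipo-Clo dividing cells under TMM, from 87 and 154 to 143 and 108. The log2 ratio of the dividing share kept its sign under all 14 and became 0.93 at 10 marker UMIs, 0.93 without clusters led by another class and 0.94 without cells over 1% haemoglobin; the last 2 were added after seeing the data. Placing cells by the marker lists alone moved the PDL-like Lipo-Clo share from 7.81% to 5.12%, or 3.87% without the other-class clusters. The Lipo-PBS shares beside these were 4.43% and 3.61%. This placement also moved the fibroblast-like Lipo-PBS share from 1.10% to 3.58%. The papilla and pulp-like shares became 9.70% and 4.99%. The odontoblast-like shares became 7.02% and 2.30%, or 6.16% and 0.769% without the other-class clusters. Thinning moved the osteoblast and cementoblast-like shares from 3.16% to 6.25% and from 0.376% to 2.56%. Genes higher in dividing cells numbered 489, but 818 with no filter and 803 at 1.5-fold, and lower ones 401, but 265 with no filter, 1169 at 1.5-fold and 264 weighted to the same mixture of clusters. The higher outnumbered the lower, but not at 1.5-fold or without clusters led by another class (454 and 541). Genes higher in Lipo-Clo dividing cells numbered 91, but 2571 with no filter, 8 at 200 UMIs, 481 at 1.5-fold and 168 at the same mixture, and lower ones 191, but 3311, 36, 646 and 342. The thinning left out 596 and 612 Col1a1-high cells under 2000 UMIs. With 115 dividing cells in Lipo-PBS, and 55 of them mesenchyme-led, single cells can carry a gene's ratio, as 1 does for Bglap. Animal-to-animal spread is unknown.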
